A study of Mus musculus with 6 samples.

Results

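The genes described here are 10 markers of the kidney endothelium, Pecam1, Kdr, Flt1, Tek, Tie1, Cdh5, Emcn, Ehd3, Plvap and Eng, and the measurement is chromatin accessibility by bulk ATAC-seq of mouse kidney. They were chosen by name, and every accessible interval that overlapped the stretch from 3 kb upstream of the gene start to the gene end was taken as belonging to the gene. This gave 127 distinct intervals at 10 genes, of 279569 intervals in the whole list and of 21757 protein-coding genes in the annotation. The series holds 3 libraries labelled WT and 3 labelled tubule-specific Acly knockout, all of kidney tissue with the treatment label Control. Per the study's methods, the WT mice were littermates with floxed Acly and no Cre, and the knockouts (Acly cKO) carried the same floxed alleles with Ksp-Cre, a Cre driven by the cadherin-16 promoter in tubular epithelium, so endothelial cells are not among its targets. The methods give an age range for mice of the study but do not tie it to the kidneys used for ATAC-seq. The labels put the WT libraries in batches 1 and 2 and the Acly cKO libraries in batches 4 and 5, so genotype and batch coincide and cannot be told apart. The values used here come from 1 deposited peak list, with a name that covers all libraries together and no column for a single library. From this list no comparison of genotypes, no replicate error and no test could be had, the depth of each library is unknown, and the values that follow describe the pooled list.

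Endothelial cells line the blood vessels of the kidney, from the arterioles through the fenestrated glomerular capillaries to the capillaries around the tubules. They sense vascular endothelial growth factor (VEGF) through the receptor tyrosine kinases Kdr and Flt1, and angiopoietins through Tek, whose partner is the related receptor Tie1. Their junctions are held by the cadherin Cdh5 and the adhesion molecule Pecam1, and their identity is kept by transcription factors of the ETS family, which bind a GGAA core, together with FOX, SOX, GATA and KLF factors. In ATAC-seq a transposase cuts open chromatin, and MACS3 reports where cuts pile up. Fold enrichment is the height of the pile-up at a summit over the caller's background, a linear ratio. In a whole kidney most nuclei are tubular, so a low fold at an endothelial gene can come from few endothelial nuclei or from little accessibility in each of them, and the data cannot tell these apart.

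These genes had summits near their starts, but the folds there were low. All 10 genes had a summit within 1 kb of a start of one of their protein-coding transcripts, against 76.5% of all protein-coding genes, and 10 of 10 had an interval anywhere in the region, against 83.2%. Among protein-coding genes with a region of 15 to 200 kb, a range that holds all 10 genes, these shares were 86.3% and 93.4%. The highest fold at the start had a median of 4.81 over the 10 genes, against 29.5 over the 16641 protein-coding genes with such a summit. A fold of 5 or more at the start was reached by 5 of 10 genes, Eng, Tie1, Kdr, Flt1 and Ehd3, against 66.2% of protein-coding genes. Eng was just above this limit with a fold of 5.50 and Cdh5 just under it with 4.12.

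The sequences directly upstream of the start are shown for the 5 genes whose start reached a fold of 5, because these are the promoters that the pooled list marks most firmly, and for Tek, which was added after its motif match had been seen. They were read from GRCm39 on the strand of the gene, 5′ to 3′, and each run lay inside a called interval. Each is 100 bases long, or the longest stretch of those 100 bases free of untranslated exon sequence, which gave 95 bases for Flt1, 97 for Tie1 and 89 for Eng. Capitals mark exact matches, on either strand, to the letters of 7 motifs. The ETS family was searched with the core CAGGAA and with a second core, CCGGAA. The joint element of FOX and ETS factors was AACAGGAA, which contains the letters of the former core. SOX factors were searched with AACAAT and KLF factors with GGGTGTGG. The letters searched for the GATA family were AGATAA. HNF4, a factor of tubular cells, was searched with CAAAGTCCA. The runs are Ehd3 at chr17:74111650-74111749 (+), Flt1 at chr5:147662827-147662921 (-), Kdr at chr5:76139119-76139218 (-), Tie1 at chr4:118347262-118347358 (-), Eng at chr2:32536451-32536539 (+) and Tek at chr4:94627191-94627290 (+).
Ehd3: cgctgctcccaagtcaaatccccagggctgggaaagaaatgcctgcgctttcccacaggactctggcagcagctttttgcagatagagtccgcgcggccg
Flt1: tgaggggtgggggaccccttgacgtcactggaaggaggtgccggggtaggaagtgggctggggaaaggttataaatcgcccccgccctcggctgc
Kdr: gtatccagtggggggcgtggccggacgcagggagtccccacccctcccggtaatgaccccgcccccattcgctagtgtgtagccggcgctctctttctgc
Tie1: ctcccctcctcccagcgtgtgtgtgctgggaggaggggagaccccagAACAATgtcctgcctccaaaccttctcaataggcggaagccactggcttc
Eng: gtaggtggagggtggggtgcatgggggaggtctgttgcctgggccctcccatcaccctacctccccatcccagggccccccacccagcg
Tek: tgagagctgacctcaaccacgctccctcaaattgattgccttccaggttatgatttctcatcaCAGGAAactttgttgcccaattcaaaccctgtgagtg

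The Tek run holds 1 match to the ETS core CAGGAA and the Tie1 run 1 match to the SOX letters, while no match to the searched letters fell in those of Ehd3, Flt1, Kdr and Eng. The bare core GGAA was not searched for, and it is also present in the Ehd3, Flt1 and Tie1 runs. The runs also differ in base composition: Kdr had 8 CpG dinucleotides in its 100 bases and a GC content of 68.0%, whereas Tek had 1 CpG and 46.0%.

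Among the VEGF receptors, Kdr (chr5:76093487-76139884, minus strand), the main signalling receptor for VEGF-A on endothelium, had 6 intervals. Its highest fold, 8.64, lay 70 bp upstream of the canonical start in an interval of 1688 bp, and the next, 6.55, lay in the 3′ UTR part of exon 30. The other 4 intervals of Kdr had folds between 1.77 and 2.36, so the gene was marked at its ends and little in between. Flt1 (chr5:147498414-147662826, minus strand), a VEGF receptor that also acts as a decoy for the ligand, had 30 intervals, the most of the 10 genes, and 12 of them had a fold of 5 or more. Its region of 167 kb was also the longest, and its 0.179 intervals per kb were near the median of 0.186 over protein-coding genes. Its highest fold, 19.2, was far from the start, in a 3037 bp interval with 10 summits over the 3′ UTR part of exon 30. At the start of Flt1 the fold was 9.76, with the summit 250 bp downstream in the 5′ UTR part of exon 1. Intron 18 held a fold of 13.8, intron 12 held 10.9, intron 14 held 10.3, intron 15 held 9.56 and intron 1 held 9.36. Open chromatin was thus spread along the whole of Flt1 and not gathered at its promoter.

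The angiopoietin receptors were lower. Tek (chr4:94627291-94763224, plus strand), the receptor also called Tie2, had 12 intervals of which 3 reached a fold of 5. Its highest fold was 6.29 in intron 1, 13617 bp downstream of the start, and a 2095 bp interval in intron 15 was close to it at 6.22. The start of Tek had a fold of 3.01, so its introns stood above its promoter by a ratio of 2.09. Tie1 (chr4:118328385-118347261, minus strand), which has no known angiopoietin ligand of its own and modulates Tek, had 2 intervals. The start interval of Tie1 had a fold of 5.96 with the summit 132 bp downstream, and the only other interval, in coding exon 12, had 1.70, a value shared by the lowest of the 127 intervals.

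At the junction and surface genes the start was weak and the strongest interval lay elsewhere. Pecam1 (chr11:106543689-106641454, minus strand), the adhesion molecule CD31, had 27 intervals, 4 of them at a fold of 5 or more. Its strongest interval had a fold of 14.8 and lay in intron 13, 40797 bp downstream of the canonical start, followed by 10.8 in intron 15. An interval with its summit at -7403 bp from the canonical start had a fold of 9.03. This summit was 1451 bp from the nearest annotated coding start of Pecam1, and so outside the 1 kb limit. None of the 27 intervals covered a start of Pecam1. Within 1 kb of its canonical start the highest fold was 2.03, with the summit 342 bp downstream. The highest summit within 1 kb of any of its 8 annotated coding starts had 2.49. That summit lay 612 bp from the nearest Pecam1 start, in an interval that also holds the start of the neighbouring gene Milr1. With starts limited to 1 kb, Pecam1 thus had the widest gap between gene body and start, a ratio of 5.95.

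Cdh5 (chr8:104828231-104871143, plus strand), the vascular endothelial cadherin, had 8 intervals with folds from 1.90 to 5.89. The highest lay in intron 2, 20413 bp from the canonical start, and the start interval reached 4.12 with its summit 19 bp upstream. Emcn (chr3:137046794-137138999, plus strand), the sialoglycoprotein endomucin of capillary and venous endothelium, had 3 intervals in 95.2 kb, the fewest per kb of the 10 genes at 0.0315. Its folds were 2.75 at the start, 2.42 in intron 1 and 4.45 in intron 7, and it was the only 1 of the 10 genes with no interval at a fold of 5. Eng (chr2:32535543-32574661, plus strand), endoglin, the co-receptor for BMP9 on endothelium, had 18 intervals that covered 51.9% of its region. Inside Eng the highest folds were 10.1 in intron 12, 9.17 in intron 2 and 7.07 in intron 1, while the start had 5.50. An interval with a fold of 15.5 also overlapped the Eng region, but its summit lay beyond the end of Eng, inside Fpgs.

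Plvap (chr8:71948674-71964506, minus strand) builds the diaphragms of fenestrated capillaries and marks the capillaries around the tubules. It had 8 intervals that covered 59.3% of its short region of 18.8 kb. Its highest fold, 19.5, came from a 6036 bp interval with 15 summits beyond the end of its canonical transcript, where the summit also lay within Gtpbp3, so that signal cannot be assigned to Plvap alone. A 3867 bp interval over coding exon 3 had a fold of 10.1, and the start had 3.93. Ehd3 (chr17:74111129-74139089, plus strand), a membrane trafficking protein of the EHD family enriched in glomerular endothelium, differed from the other 9 genes in this list of values. Its start had a fold of 31.2 with the summit 3 bp upstream, and its other 12 intervals, all in introns 1 to 3, had folds between 1.90 and 3.14.

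**Figure D1:**
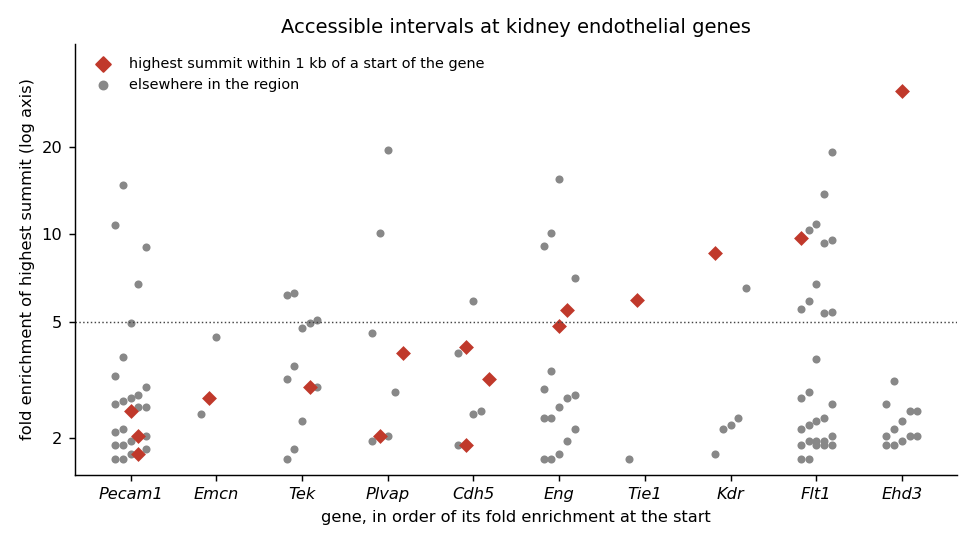
Fold enrichment (log axis) of each of the 127 intervals by gene, with genes ordered by their fold at the start. Red diamonds are intervals whose highest summit lies within 1 kb of a start of the gene, grey points are the others, and the dotted line marks a fold of 5. Pecam1, Plvap and Eng have grey points well above their red ones, and Ehd3 has its red point far above its grey ones.

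The order of the genes by fold at the start was Pecam1 2.49, Emcn 2.75, Tek 3.01, Plvap 3.93, Cdh5 4.12, Eng 5.50, Tie1 5.96, Kdr 8.64, Flt1 9.76 and Ehd3 31.2. The order by highest fold in the region was different: Emcn 4.45, Cdh5 5.89, Tie1 5.96, Tek 6.29, Kdr 8.64, Pecam1 14.8, Eng 15.5, Flt1 19.2, Plvap 19.5 and Ehd3 31.2. With no replicates there is no spread to set these gaps against. Fold values under 20 rose in steps of 0.0655, and Pecam1 and Emcn were 38 and 42 steps high at their starts, while Kdr and Flt1 were 132 and 149 steps. Neighbours such as Pecam1 and Emcn, Plvap and Cdh5, or Eng and Tie1 are therefore not ranked here.

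Kdr, Tie1 and Ehd3 had their strongest interval at the start, 3 of 10 genes against 68.1% of the protein-coding genes with an interval. At Flt1 and Plvap the strongest interval lay within 3 kb of the gene end, 2 of 10 genes against 7.87% of protein-coding genes, a measure that was chosen after the values had been seen. The remaining 5 genes, Pecam1, Tek, Cdh5, Emcn and Eng, had it in an intron or, for Eng, past the gene end. Over the 10 genes the highest fold in the region had a median of 11.7, against 30.8 over all protein-coding genes with an interval. The place of each gene in that distribution ran from 8.77% of genes below Emcn to 50.5% below Ehd3.

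**Figure D2:**
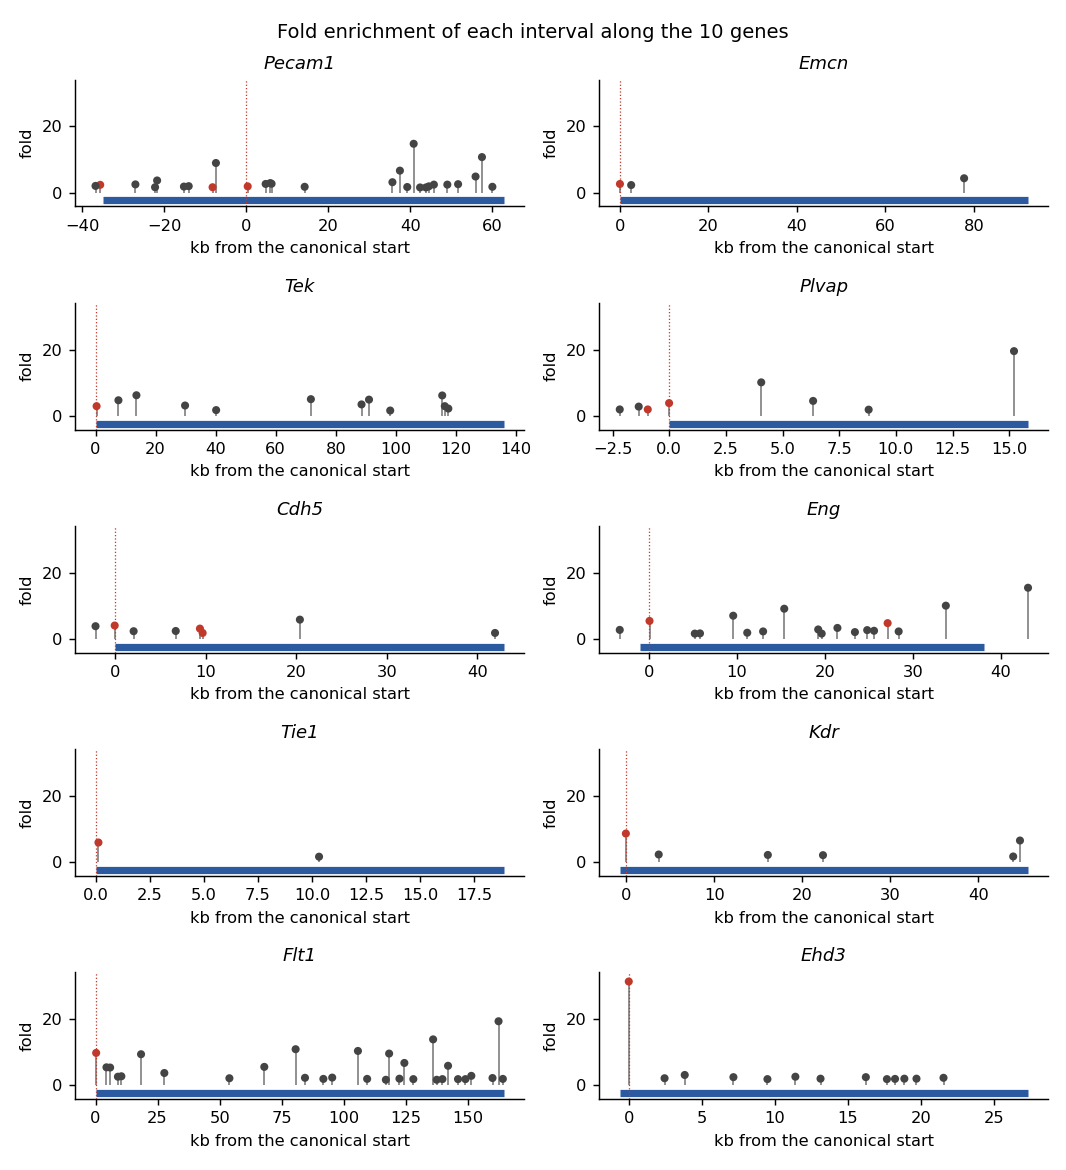
Fold enrichment of each interval (linear axis) against the distance in kb of its highest summit from the canonical start, along the direction of transcription, in 1 panel per gene. The blue bar under each panel is the annotated gene, the dotted line the canonical start, and red points lie within 1 kb of a start. Flt1 and Pecam1 carry high points deep in the gene, Kdr carries them at both ends, and Ehd3 only at the start.

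Fewer than 1 in 4 of the intervals were strong, and in this the 10 genes were like the whole list. Of the 127 intervals, 31 (24.4%) had a fold of 5 or more, against 24.5% of all intervals, and 73 (57.5%) had a q under 1e-05, against 54.9%. Their median fold was 2.62, against 2.55 in the whole list. Nor was the number of intervals per kb high, with a median of 0.177 over the 10 genes against 0.186 over protein-coding genes. The 10 genes had a median of 10 intervals against 4, over regions with a median length of 47.7 kb against 22.2 kb. Of the 127, 16 had their highest summit within 1 kb of a start, with a median fold of 3.57, and 5 of them (31.2%) reached a fold of 5. The other 111 had a median of 2.55, and 26 of them (23.4%) reached a fold of 5. The share of strong intervals that lay over 1 kb from any coding start was thus 83.9% (26 of 31) at the 10 genes, near the 79.4% of the whole list. By the canonical transcripts, 90 of the 127 summits lay in introns, 20 of them with a fold of 5 or more. A further 18 lay upstream of the canonical start, 7 in coding exons, 6 in 5′ UTR exons, 4 in 3′ UTR exons and 2 beyond the gene end.

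Promoters rich in CpG dinucleotides are open in most tissues, so the starts were also set beside starts of like base composition. A start was called CpG-rich where the 1001 bp around it had an observed to expected CpG ratio of at least 0.6 and a GC content of at least 50%. Of the 10 genes 2 were CpG-rich, Kdr with a ratio of 0.665 and Flt1 with 0.811, against 46.1% of protein-coding genes. Ehd3 was just under the limit with 0.599, and Pecam1 was lowest with 0.223. The 8 CpG-poor genes had a median fold at the start of 4.03, against 12.6 over the CpG-poor protein-coding genes with a summit there, and 7 of the 8 were below that median, Ehd3 being the exception. Kdr and Flt1 were both below the median of 38.7 of the CpG-rich genes, with 6.77% and 7.61% of CpG-rich starts below them. Among CpG-poor starts the share below ran from 10.9% for Pecam1 through 30.5% for Eng and 32.4% for Tie1 to 75.9% for Ehd3. A summit at the start was found for 57.7% of CpG-poor genes, and a fold of 5 or more there for 41.1% of them, against 3 of the 8 CpG-poor genes here, Tie1, Eng and Ehd3. Of CpG-poor genes with a region of 15 to 200 kb and an interval, 50.9% had their strongest interval at the start.

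**Figure D3:**
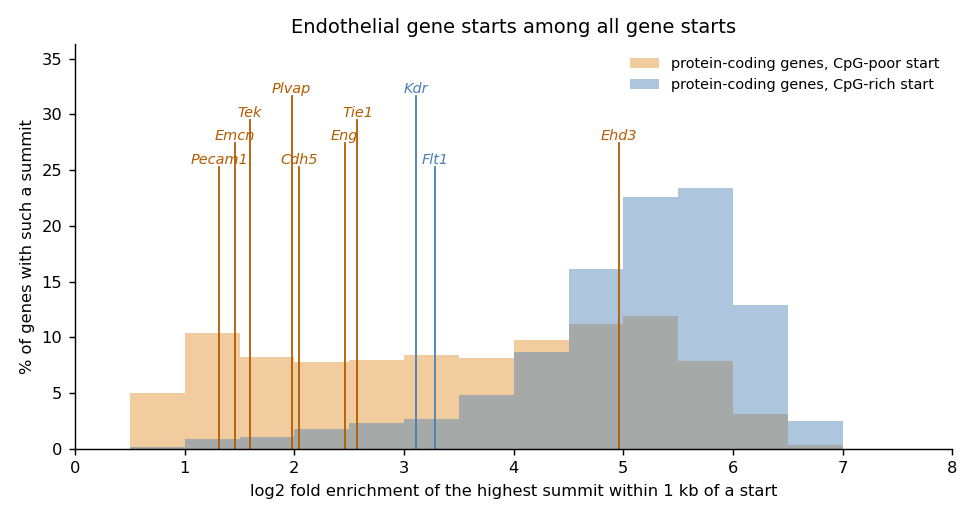
Distribution of the log2 fold enrichment of the highest summit within 1 kb of a start, as a percentage of the protein-coding genes with such a summit, for CpG-poor (orange) and CpG-rich (blue) starts. Vertical lines mark the 10 genes, coloured by their own class, and 9 of them stand to the left of the median of their class, with Ehd3 to the right.

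Starts of markers of other kidney cells gave a scale for these values. The 6 markers of the proximal tubule, the most abundant epithelium of the cortex, all had a fold of 5 or more at the start, with a median of 11.1, although 1 of the 6 is CpG-rich. The 5 podocyte markers had a median of 9.76 and the 5 stromal markers 7.33. Of the 6 immune markers, 5 had a summit at the start, with a median of 2.49 and 1 fold above 5. Genes of other organs (heart, muscle, brain, pancreas and liver) had a summit at the start in 4 of 6 cases, with folds from 1.96 to 3.67, and these give the level seen at genes that the kidney should not use. Pecam1, Emcn and Tek, at 2.49 to 3.01, lay inside that range at their starts, and the other 7 genes lay above it. Plvap, at 3.93, was so near its top of 3.67 that it is not set apart from it here. Inside gene bodies this range does not apply, since genes of other organs reached a median highest fold of 11.8 in their regions, against 11.7 for the 10 endothelial genes.

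Genes of the pathways in which the 10 genes act were described from 8 lists with 69 genes. Of these, 66 had a summit at the start and 59 a fold of 5 or more, with a median of 13.8. The median was 34.3 over the 35 CpG-rich genes and 8.25 over the 34 CpG-poor ones. In the VEGF system all 8 genes had a summit at the start with a fold of 5 or more and a median of 16.7. The ligands Vegfc with 39.0 and Vegfa with 30.7 and the co-receptor Nrp2 with 22.3 were highest. The third VEGF receptor, Flt4, named here after its values were seen, was the lowest of the 8 at 7.40, next to Kdr at 8.64 and Flt1 at 9.76. The ligands Vegfd and Pgf, also named after their values were seen, were in the same range at 8.25 and 8.38.

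In the angiopoietin system 3 of 4 genes reached a fold of 5, with a median of 6.91. The ligand Angpt1 had 11.1, the phosphatase Ptprb, which dephosphorylates Tek, had 7.86, and the ligand Angpt2 had 5.96. Each exceeded Tek itself at 3.01. Around Eng, 8 of 10 genes of BMP9 and ALK1 signalling had a summit at the start, with a median of 37.8, and the signal transducers Smad1 with 53.8 and Smad4 with 50.6 and the target Id3 with 44.8 were highest. Acvrl1, the ALK1 receptor with which Eng acts, named after its values were seen, was the lowest of the 8 at 4.52, next to Eng at 5.50. The ligand genes Gdf2, which encodes BMP9, and Bmp10 had no summit at the start. Gdf2 is expressed in liver and Bmp10 in heart, and Bmp10 had no interval in its region.

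Other surface and junction genes of endothelium were also low, with 8 of 11 at a fold of 5 or more and a median of 6.74. Esam, an adhesion molecule of tight junctions, stood out there at 48.1, followed by the sphingosine-1-phosphate receptor S1pr1 at 13.6 and the adhesion molecule Mcam at 11.5. Of 15 endothelial transcription factors all had a summit at the start and 14 had a fold of 5 or more, with a median of 10.5. Ets1 had 73.5, Klf2 had 62.1 and Ets2 had 50.7, 3 genes that are active in many cell types. All 12 Notch and arteriovenous genes had a summit at the start, 11 with a fold of 5 or more, and the median was 33.3. The Notch targets Hey2 with 80.1 and Hey1 with 59.8 and the arterial ligand Efnb2 with 67.2 led the list. The EHD and caveolar genes all had a fold of 5 or more with a median of 36.5, led by Ehd4 with 53.9, the caveolar gene Cav2 with 53.6 and Ehd1 with 46.5. Ehd3 at 31.2 lay inside the range of this list, 21.9 to 53.9, and the other 9 genes lay below it. Of the lymphatic genes, Prox1 had 13.9 and Pdpn 10.2, and Lyve1 had no summit at its start.

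**Figure D4:**
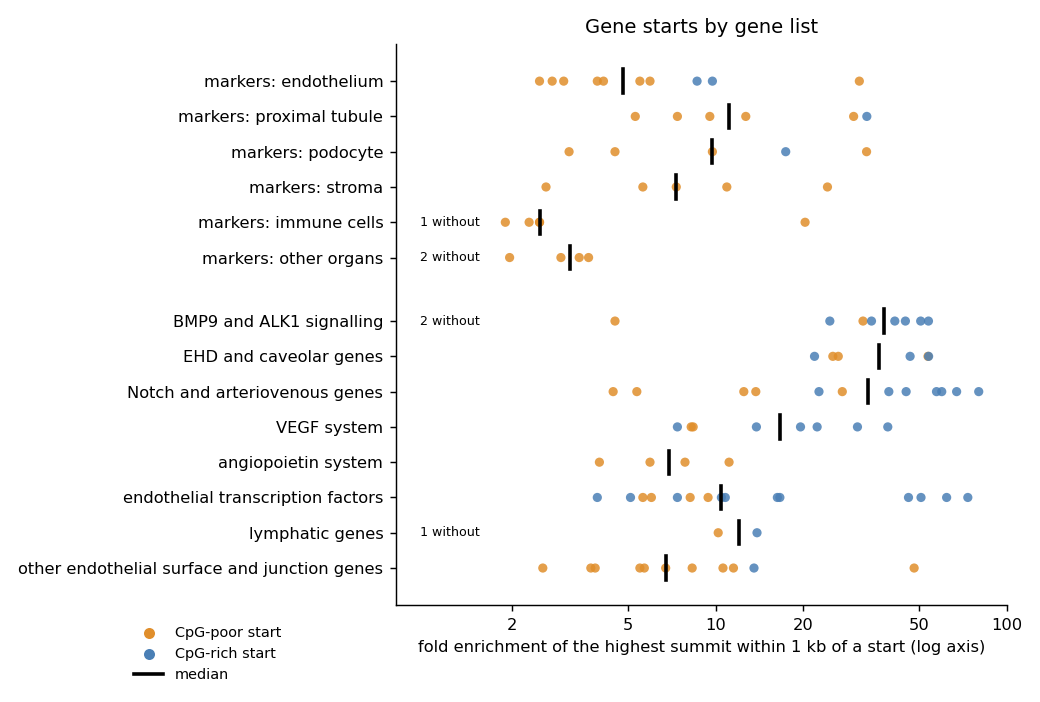
Fold enrichment at the start (log axis) of each gene, by list. Points are genes with a CpG-poor (orange) or CpG-rich (blue) start, black bars are medians, and text at the left gives the number of genes with no summit within 1 kb of a start. The endothelial markers, with a median of 4.81, lie below the proximal tubule markers at 11.1 and above the genes of other organs at 3.18.

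Motif letters were counted on both strands in windows of 200 bp, each centred on the top summit of an interval. The ETS core CAGGAA was present in 56 of the 127 windows at the 10 genes, 44.1% with a 95% Wilson interval of 35.8% to 52.8%, against 26.1% of all 279569 windows. The interval covers counting error only and treats windows as independent, which windows of 1 gene are not. For windows with a fold of 5 or more the shares were 41.9% (13 of 31) and 27.0%. Among those with a fold of 5 or more that lay over 1 kb from any coding start they were 46.2% (12 of 26) and 29.2%. In these smaller sets the Wilson intervals, 26.4% to 59.2% and 28.8% to 64.5%, held the share of the whole list. Matches were unevenly spread over the genes, from 7 of 8 windows at Cdh5 and 3 of 3 at Emcn, through 11 of 27 at Pecam1 and 10 of 30 at Flt1, to 3 of 13 at Ehd3. The second ETS core, CCGGAA, was in 8.66% (11 of 127) against 3.94%, and in windows with a fold of 5 or more in 19.4% (6 of 31) against 7.34%. In 100 bp windows the shares for CCGGAA were 3.94% and 2.25%, and the Wilson interval of the 10 genes then held the share of the whole list. Mean GC content was 53.4% in the windows of the 10 genes and 50.8% in all windows, and its part in these shares was not tested.

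At the starts themselves, CAGGAA was in the window of the highest start summit of 6 of the 10 genes, among them Eng, Tek and Pecam1, against 18.6% of protein-coding genes with a start summit and 24.8% of CpG-poor ones. None of these 6 was among the 4 genes with the highest starts, Ehd3, Flt1, Kdr and Tie1. The Pecam1 window is centred 612 bp from its nearest start, in the interval that also holds the start of Milr1. CCGGAA, a core common in CpG-rich promoters, was at the start of Kdr alone, against 20.9% of protein-coding genes. The joint FOX and ETS letters AACAGGAA were in 4 of the 127 windows, 3.15% against 2.19%. All 4 windows had a fold under 5, and they included intron 1 of Kdr. These letters were in the start windows of 2 of the 10 genes, against 1.46% of protein-coding genes. The SOX letters were in 11.0% against 7.19%, the KLF letters in 4.72% against 2.70%, the GATA letters in 6.30% against 7.20% and the HNF4 letters in 0.787% against 0.884%. For these 4 and for AACAGGAA the share over all windows lay within the Wilson interval of the 10 genes in these 200 bp windows. For the SOX and KLF letters and AACAGGAA this did not hold at every other window setting, as given further below.

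**Figure D5:**
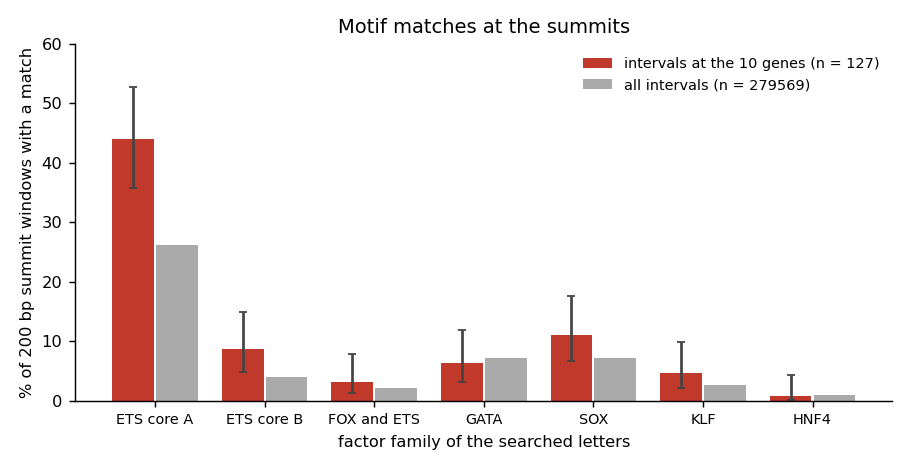
Percentage of 200 bp summit windows that hold the searched letters, for the 127 intervals at the 10 genes (red, with 95% Wilson intervals that cover counting error only) and for all 279569 intervals (grey). ETS core A is CAGGAA and ETS core B is CCGGAA. The red bars of both ETS cores stand above the grey ones, 44.1% against 26.1% and 8.66% against 3.94%.

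The sequences at strong summits away from the start are shown for 4 genes, since it was there and not at the promoters that the highest folds of most of these genes lay. Each is centred on the summit with 50 bases to either side, on the strand of the gene in GRCm39, with motif matches in capitals as above. Where the strongest summit lay in untranslated exon sequence, at Flt1 and Plvap, the next strongest was taken. They are Pecam1 intron 13 at chr11:106565610-106565710 (-) with a fold of 14.8, Flt1 intron 18 at chr5:147526836-147526936 (-) with 13.8, Plvap coding exon 3 at chr8:71960397-71960497 (-) with 10.1, and the interval past the end of Eng, inside Fpgs, at chr2:32579564-32579664 (+) with 15.5.
Pecam1: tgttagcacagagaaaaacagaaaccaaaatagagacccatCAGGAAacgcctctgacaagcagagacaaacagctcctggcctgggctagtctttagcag
Flt1: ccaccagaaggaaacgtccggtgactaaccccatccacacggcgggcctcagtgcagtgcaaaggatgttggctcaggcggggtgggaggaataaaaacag
Plvap: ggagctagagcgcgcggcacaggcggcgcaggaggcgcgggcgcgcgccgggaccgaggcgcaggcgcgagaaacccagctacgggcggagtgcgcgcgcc
Eng: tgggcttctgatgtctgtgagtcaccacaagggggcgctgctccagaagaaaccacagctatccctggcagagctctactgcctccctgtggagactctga
The Pecam1 summit holds the ETS core CAGGAA close to its centre, and no match to the searched letters fell in the other 3 runs. The bare core GGAA, which was not searched for, is present in the Flt1 run. The Plvap run is different in kind, with 20 CpG dinucleotides and a GC content of 80.2%, against 5 CpG at Flt1 intron 18 and 1 each at the Pecam1 and Eng summits.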

How the data were processed

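Kidney nuclei were profiled by ATAC-seq in 6 libraries, grouped by their labels into 3 WT and 3 Acly cKO. The study's methods count further WT libraries, and the sources used here do not say which libraries went into the peak list. Per the methods, the authors used fastp for trimming and Bowtie2 2.3.4.3 for alignment to mm39, kept uniquely mapped reads without duplicates, ran MACS3 3.0.0 (q 0.05, extension 200 bp, summits called) and removed blacklisted regions with BEDTools 2.29.1. The sign of the read shift is not clear from the methods, and its effect on summit positions was not tested.

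The deposited list gives for each summit a fold enrichment, a linear ratio computed by the authors, a −log10 q-value and a score that the authors' caller derived from it. The deposited summit list before filtering holds 750624 summits, 874 more than the final list, with none of the 874 in the regions used here. Each of the 1549 distinct folds had 1 q-value, and 100% of folds under 20 were whole multiples of 0.0655, within 0.05 of a step. No per-sample values exist in these files, so depth and precision per library are unknown.

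Rows with the same coordinates were merged into 1 interval with the values of its highest summit. Coordinates are GRCm39, counted from 1, with genes from GENCODE M39. No interval passed a GRCm39 chromosome end. A start is that of any protein-coding transcript, and places are given by the canonical transcript. The 10 genes, lists and motifs were chosen with earlier results of these data known. All 10 genes are named, and in each list up to 3 genes with the highest fold at the start and up to 3 with no summit there. Start sequences were to be centred on summits but were shown from upstream of the start, because the centred windows held untranslated exon sequence, and 1 such sequence is not reported here. Scripts (Python 3.11.15, numpy 2.4.6, pandas 2.3.3, scipy 1.17.1) were tested on simulated data with known answers. Alternatives covered the q and fold limits, the extent of the region, the definition of a start, and the motif window.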

Additional observations from a re-analysis of the deposited data

How the results depend on the processing

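The count of 127 intervals became 73 at a q under 1e-05, 31 at a fold of 5 or more and 302 when every summit was counted. Genes with a summit at the start went from 10 to 5 at a fold of 5 or more. The share of windows with CAGGAA was 24.4% in 100 bp windows (all intervals 14.6%) and 35.1% with 1 window per summit (24.2%), both with Wilson intervals above the whole list. Per-summit windows from 1 interval can overlap and share the same letters, so they are not independent and their Wilson intervals are too narrow. None of these Wilson intervals is a test. For CCGGAA it was 3.94% in 100 bp windows (2.25%), 19.4% at a fold of 5 or more (7.34%) and 4.64% per summit (3.43%), and the first and last of these had Wilson intervals that held the whole-list share. AACAGGAA and CAAAGTCCA were at 0% at a fold of 5 or more (2.20% and 1.51%), with Wilson intervals up to 11.0% that held these whole-list shares. AGATAA was at 3.15% in 100 bp windows (3.07%) and 3.23% at a fold of 5 or more (5.58%). For shares, a value counted as moved when it left the Wilson interval of the 10 genes in 200 bp windows, whatever the whole-list share. The other 26 of 39 alternative values over the 10 genes moved by under 1.5 times for counts and medians, or stayed within that interval for shares. Among them the median fold at the start was 5.50 within 200 bp of a start, with 9 genes, and the median highest fold was 9.36 where the summit had to lie inside the region, a choice made after seeing the data. At single genes 5 of 59 folds moved by 1.5 times or more. Eng fell from 15.5 to 10.1 with the summit inside the region and rose to 51.1 with 10 kb on either side, Plvap rose to 31.2 and Cdh5 to 8.84 with 10 kb, and the start of Flt1 had 5.96 within 200 bp. Of the interval counts at single genes, 22 of 70 moved. No paired analysis was possible because the peak list pools the libraries, and for the same reason no library could be left out.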
